A study of Mus musculus with 72 samples.

Results

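The oxidative phosphorylation genes described here are the nuclear genes for subunits of complexes I, III, IV and ATP synthase, with the assembly factors and tissue isoforms that share their names. They were chosen by gene symbol alone, as probe sets with 1 symbol that begins with Ndufa, Ndufb, Ndufc, Ndufs, Ndufv, Uqcr, Cox4i, Cox5, Cox6, Cox7, Cox8 or Atp5, and each gene was represented by its brightest probe set, by the mean of the 72 arrays. This gave 85 of the 18194 genes with such a probe set. Atp5o, an ATP synthase stalk gene in the triplicated segment, was left out of the 85. Of these members, 68 were subunits (34 of complex I, 8 of complex III, 10 of complex IV and 16 of ATP synthase), 8 were assembly factors of complex I and 9 were tissue isoforms or paralogues of complex IV subunits.

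The study profiled the cerebral cortex, cerebellum and hippocampus of female Ts1Cje mice and their disomic littermates at 4 ages, P84, P30, P15 and P1, in days after birth. The methods give the youngest age as P1.5. Ts1Cje mice carry a partial trisomy of mouse chromosome 16 and model Down syndrome. Both genotypes came from matings of Ts1Cje males with C57BL/6 females. Each of the 24 groups of genotype, region and age held 3 arrays of 3 mice, 72 arrays in all. By the methods, the 3 regions were taken from 3 mice of each genotype at each age, so that the regions share mice. The ages were different mice.

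In oxidative phosphorylation, complexes I, III and IV of the inner mitochondrial membrane pass electrons from NADH to oxygen and pump protons, and ATP synthase makes ATP from the return of those protons through its c-ring. Neurons depend on it for the cost of synaptic signalling, and it is known to expand in the postnatal brain. Most subunits have a single nuclear gene, but several small subunits of complex IV have a ubiquitous form and a form best known from muscle, testis or lung, and the c-ring protein is encoded by 3 genes, Atp5g1, Atp5g2 and Atp5g3.

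Values are log2 intensities made with gcRMA, so a difference of 1 is a doubling, and levels of different genes cannot be set against each other. A gene was called where the moderated t of limma was at least 4 or at most -4 and the Benjamini-Hochberg adjusted p was at most 0.05, the criteria of the study's methods. Where 3 values are given for the 3 regions, they stand in the order cerebral cortex, cerebellum, hippocampus. Array medians lay between 3.20 and 3.37. Of the 85 members, 77 had a group mean above the array medians in all 24 groups, and 5 (Cox4i2, Cox7b2, Cox8c, Ndufa4l2 and Ndufb4) had none and were not shown above background. Cox6a2 was above in 10 groups, Cox6b2 in 9 and Cox8b in 2.

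On markers of the regions, 2 arrays went against their labels. The array labelled disomic P15 cerebellum replicate 3 had a mean of 4.78 over 10 cerebellar genes against a median of 10.95 in its region and age, and the one labelled disomic P15 hippocampus replicate 3 had 11.07 against 4.63. They were kept as labelled, are called displaced, and the results that rest on them are given with and without them. A further 3 arrays, disomic replicate 3 of P1 cerebellum, P84 cerebral cortex and P84 hippocampus, were dim, with upper quartiles of 4.97 to 5.51 against 5.65 to 5.93 on the others. In bulk tissue, fewer cells of a type and less RNA per cell cannot be told apart.

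Promoter stretches are shown for the genes that the results turn on: the 3 c-ring genes, which did not move alike, Cox8a and Uqcr11, which rose in all 3 regions after P1, and Cox7a1, which rose in the cerebellum. Each runs from 90 bases before to 10 bases after the start in RefSeq on GRCm38.p6, 5′ to 3′ on the gene's strand, and capitals mark a match on either strand to a motif named below.
Atp5g1, chr11:96075622-96075721, minus strand: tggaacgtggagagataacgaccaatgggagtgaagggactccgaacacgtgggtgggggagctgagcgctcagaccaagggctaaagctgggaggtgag
Atp5g2, chr15:102671038-102671137, minus strand: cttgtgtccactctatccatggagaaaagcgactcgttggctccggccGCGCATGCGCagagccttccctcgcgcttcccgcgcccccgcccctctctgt
Atp5g3, chr2:73911317-73911416, minus strand: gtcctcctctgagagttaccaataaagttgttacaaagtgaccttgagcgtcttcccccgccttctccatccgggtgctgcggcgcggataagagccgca
Cox8a, chr19:7217607-7217706, minus strand: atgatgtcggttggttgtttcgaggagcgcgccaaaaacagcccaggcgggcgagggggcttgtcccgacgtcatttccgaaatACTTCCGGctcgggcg
Uqcr11, chr10:80406812-80406911, minus strand: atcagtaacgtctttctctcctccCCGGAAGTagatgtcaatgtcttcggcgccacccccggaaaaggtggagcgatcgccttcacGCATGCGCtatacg
Cox7a1, chr7:30184081-30184180, plus strand: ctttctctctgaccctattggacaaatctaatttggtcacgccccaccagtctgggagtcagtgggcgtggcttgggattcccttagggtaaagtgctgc

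A window from 250 bases before to 50 bases after the start was on hand for 70 of the 85 members, as 75 windows. The letters GCGCATGC, a core of the site of NRF1, a factor known for driving respiratory chain genes, were in 13.3% of the member windows and in 2.71% of all 32851 windows. The YY1 letters AAGATGGC were in 13.3% and 2.75%, the ETS letters CCGGAAGT in 6.67% and 3.89%, and TATAAA in 12% and 13.6%. In the stretches shown, Atp5g2 has overlapping NRF1 matches of both strands, Uqcr11 has an NRF1 and an ETS match, Cox8a has an ETS match, and Atp5g1, Atp5g3 and Cox7a1 have none in these letters. Both strands were searched, and a match is a run of letters and not a measured binding site.

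The subunits rose between P1 and P15 in all 3 regions, and few were called at later steps. The mean of the 68 subunits in the cerebral cortex ran from 10.02 through a median of 10.21 to 10.44 at P1 and from 10.62 through 10.69 to 10.73 at P15. In the hippocampus it ran from 10.09 through 10.23 to 10.35 at P1 and from 10.65 through 10.66 to 10.70 at P15. In the cerebellum the P1 mean was already higher, from 10.33 through 10.48 to 10.69, and the P15 mean ran from 10.68 through 10.76 to 10.85. The P1 and P15 arrays did not overlap in the cerebral cortex and hippocampus and met at the edge in the cerebellum. At P84 the medians of the 3 regions were 10.51, 10.61 and 10.52, below those of P15. The P84 arrays of the cerebral cortex, which reached 10.58, lay below its P15 arrays, and in the cerebellum and hippocampus the P15 and P84 arrays overlapped. Only steps between neighbouring ages were tested, so that P84 was not tested against P15. The genotypes overlapped in 11 of the 12 combinations of region and age. In the P84 hippocampus the disomic arrays had 10.45, 10.50 and 10.34, the last of them dim, and the Ts1Cje arrays 10.55, 10.54 and 10.65.

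**Figure D1:**
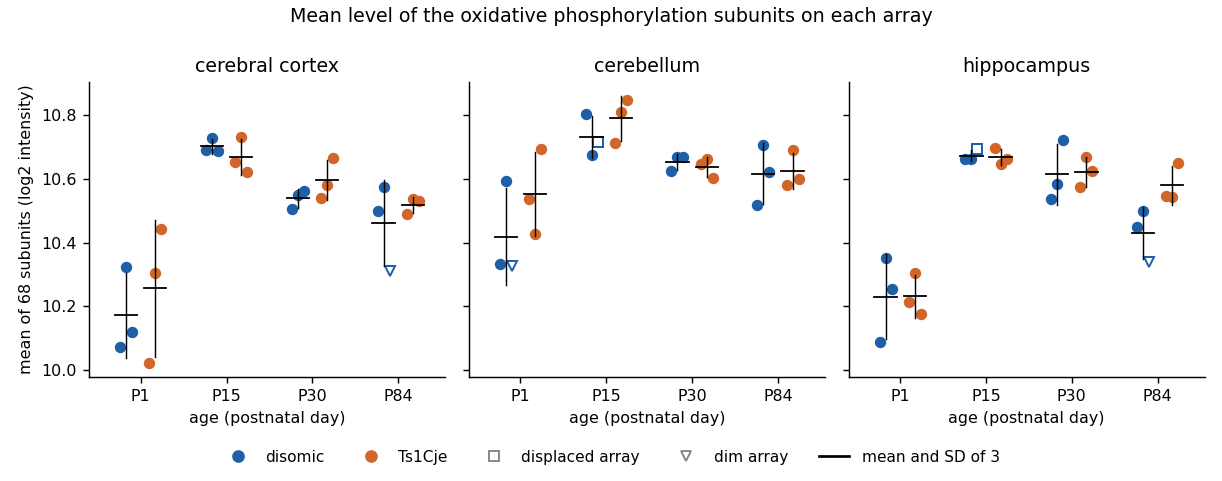
Mean log2 intensity of the 68 subunits on each of the 72 arrays, by age (postnatal day) and region, with points for single arrays, lines for the mean and SD of 3 mice, and open symbols for the displaced and dim arrays. The P15 arrays of the cerebral cortex (10.62 to 10.73) and hippocampus (10.65 to 10.70) lie above the P1 arrays of the same region, and the genotypes overlap in 11 of the 12 combinations of region and age, the exception being the P84 hippocampus.

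Gene by gene, 42 members were higher and 1 lower at P15 than at P1 in the cerebral cortex, where 15% of all genes were higher and 15.5% lower. In the hippocampus 37 were higher and 0 lower, against 12.2% and 13.5% of all genes, with limma at an adjusted p of 0.05. In the cerebellum 23 were higher and 4 lower, against 12.9% and 14.7%. The median differences of the members were 0.42, 0.27 and 0.41 in the 3 regions, and over all genes they were 0.02, -0.07 and -0.01. Among the 7757 genes with a mean of at least 5, 24.5%, 23.6% and 21.5% were higher in those regions. Without disomic P15 cerebellum replicate 1 the cerebellum had 17 calls, 15 higher and 2 lower. Without the 5 displaced or dim arrays, 43, 20 and 35 members were higher in the 3 regions and 1, 4 and 0 lower.

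In all, 22 members were higher at P15 in all 3 regions, 11 in 2, 14 in 1 and 38 in none. Of all 18194 genes, 1255 were higher in all 3 regions. These 22 came from every complex: Ndufa3, Ndufa9, Ndufa13, Ndufb2, Ndufb9, Ndufs1, Ndufs5 and Ndufs8 of complex I, Uqcr11 and Uqcrb of complex III, Cox4i1, Cox5b, Cox6a1, Cox6b1, Cox6c and Cox8a of complex IV, and Atp5b, Atp5g1, Atp5g3, Atp5h, Atp5j and Atp5md of ATP synthase. When each array was left out in turn, 34 of the 43 cortical calls, 14 of the 27 cerebellar and 26 of the 37 hippocampal calls stood every time. Among the 22, the cerebellar calls of Ndufb2, Ndufb9, Atp5j and Atp5md were lost without 9, 8, 8 and 7 of 12 single arrays. Those of Ndufa9, Ndufa13, Ndufs8, Cox6b1, Atp5g1 and Atp5h were lost without 2 to 5 of 12. The cerebellar call of Ndufa3 was lost with its probe sets averaged (0.12).

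Cell type markers moved over the same days. Of 8 mature neuron genes, 8, 4 and 8 were higher at P15, and their mean rose from 7.60 to 8.12 at P1 to 10.79 to 10.98 at P15 in the cerebral cortex. Of 8 immature neuron genes, 8, 7 and 8 were lower, and all 7 proliferation genes were lower in each region. All 7 oligodendrocyte genes were higher in each region, by medians of 5.37, 6.23 and 6.23. The part of these shifts in cell type in the rise of the subunits was not tested.

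**Figure D2:**
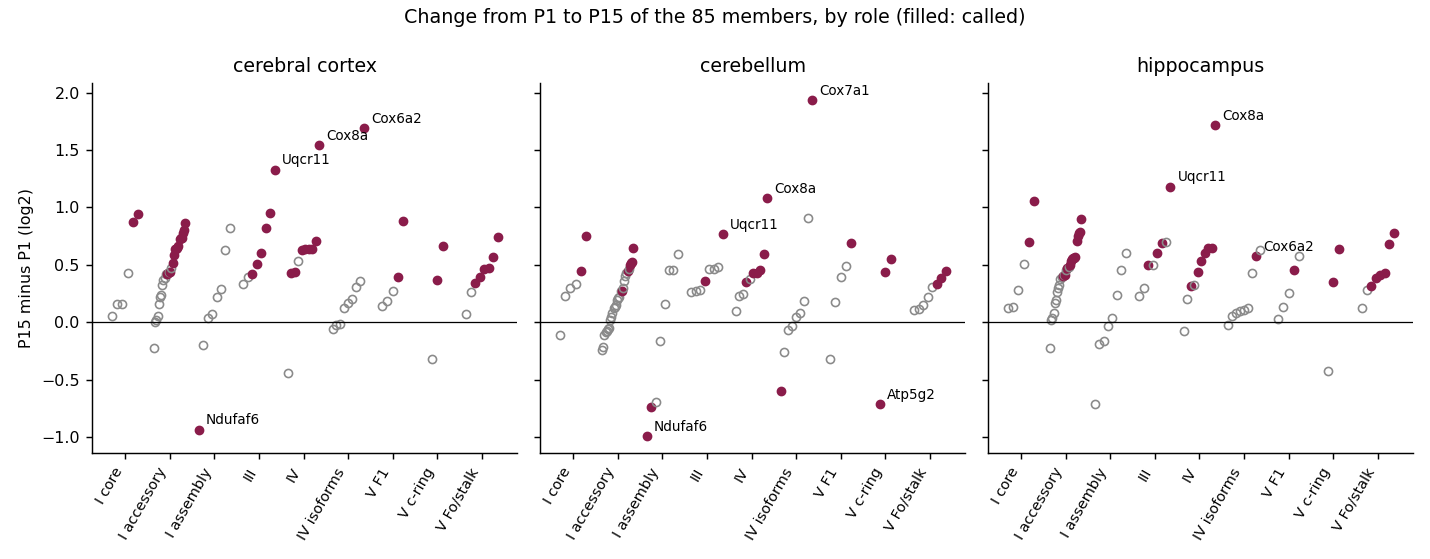
P15 minus P1 differences (log2) of the 85 members in each region, grouped by role in complexes I, III, IV and ATP synthase (V), with filled points for members called by limma and open points for the rest. All called subunits but Atp5g2 in the cerebellum (-0.71) lie above 0, the assembly factors of complex I have no call above 0, and Cox8a (1.54, 1.08 and 1.72) lies highest among the subunits of each region.

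Complex I, which takes electrons from NADH, had 17, 8 and 16 of 34 subunits higher at P15 in the 3 regions. Only Ndufs1 and Ndufs8 were called among its 6 core subunits. Ndufs1, the largest subunit of complex I, ran from 8.53 through 9.01 to 9.12 at P1 and from 9.65 through 9.81 to 9.87 at P15 in the cerebral cortex. Its lowest and median hippocampal values at P1 were 8.71 and 8.76, and at P15 it ran from 9.73 through 9.87 to 9.97 there. Its cerebellar values ran from 9.05 through 9.16 to 9.60 and from 9.87 through 9.94 to 10.05. The ages did not overlap for Ndufs1 in any region, and its differences were 0.87, 0.75 and 1.05 (SE 0.09, adjusted p 5.73e-12, 5.77e-10 and 1.91e-14). Of the accessory subunits, Ndufs5 was among the highest by moderated t in the cerebral cortex and cerebellum (0.78 and 0.64), and Ndufa3 in the hippocampus (0.90).

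The 8 complex I assembly factors, which help to build the complex and are not part of it, were not called higher at P15 in any region, and 2 were lower in the cerebellum and 1 in the cerebral cortex. Ndufaf6, needed for early assembly steps, ran from 3.82 through 4.90 to 5.58 at P1 and from 3.57 through 3.84 to 4.16 at P15 in the cerebellum. The ages overlapped, and the difference was -0.99 (SE 0.22, adjusted p 0.000184). It missed the moderated t threshold without disomic P1 cerebellum replicate 2 (-0.76, adjusted p 0.00318) or without Ts1Cje P1 cerebellum replicate 3 (-0.91, adjusted p 0.00127). Ndufaf6 also had the lowest correlation of any member with the mean of the other members over the 24 group means, Pearson's r -0.73, and Uqcrb, a ubiquinone-binding subunit of complex III, had the highest, 0.96. These group means share the same arrays, and the values are a description.

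In complex III, which passes electrons on to cytochrome c, 6, 2 and 4 of 8 subunits were higher at P15. Uqcr11, a small subunit of the complex, ran from 8.99 through 9.25 to 9.56 at P1 and from 10.23 through 10.64 to 10.72 at P15 in the cerebral cortex. Its cerebellar values ran from 9.25 through 9.78 to 10.10 and from 10.27 through 10.44 to 10.80, and its hippocampal values from 9.14 through 9.46 to 9.68 and from 10.42 through 10.67 to 10.74. No P1 array reached a P15 array of its region. The differences of Uqcr11 were 1.33, 0.77 and 1.18 (SE 0.11, adjusted p 1.62e-15, 3.03e-08 and 1.50e-13).

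Uqcr11 then fell, with a call in the cerebellum from P15 to P30 and in the cerebral cortex from P30 to P84. In the cerebellum it was lower at P30 than at P15, from 9.84 through 9.99 to 10.03, by -0.52 (SE 0.11, adjusted p 0.000371). No array left out in turn ended this cerebellar call. Ndufs4, an accessory subunit of complex I, was also lower there at P30 (-0.55), but not when its probe sets were averaged (-0.16). At P84 the medians of Uqcr11 were 9.78 and 9.71 in the cerebral cortex and cerebellum, and its hippocampal values ran from 9.87 to 10.10. From P30 to P84 Uqcr11 differed by -0.45 in the cerebral cortex. That call was lost without 8 of 12 single arrays, and without the 3 dim arrays. Its differences over that step in the cerebellum (-0.31) and hippocampus (-0.40) were not called. Few members were called after P15 in all. From P15 to P30 the 3 regions had 1 call (2.51% of all genes), 4 (6.15%) and 0 (2.63%), and from P30 to P84 they had 2 (0.407%), 0 (0.918%) and 0 (0.462%).

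In complex IV, which reduces oxygen, 8, 6 and 7 of 10 subunits were higher at P15. Cox8a, the ubiquitous form of subunit 8, ran from 8.31 through 8.68 to 8.95 at P1 and from 10.04 through 10.14 to 10.49 at P15 in the cerebral cortex. Its cerebellar values ran from 9.05 through 9.24 to 9.54 and from 10.13 through 10.34 to 10.63, and its hippocampal values from 8.14 through 8.49 to 8.99 and from 9.79 through 10.29 to 10.53. The ages did not overlap in any region. Cox8a rose 2.91-fold, 2.12-fold and 3.29-fold, or by 1.54, 1.08 and 1.72 on the log2 scale (SE 0.12, adjusted p 5.26e-16, 7.47e-11 and 1.56e-17). A second Cox8a probe set gave 1.62, 1.22 and 1.94, and the remaining one, near the floor of the values with a mean of 2.14, gave no call.

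The ubiquitous forms of the other isoform pairs rose less. Cox6a1 rose by 0.64, 0.59 and 0.65 in the 3 regions, and Cox4i1 by 0.63, 0.46 and 0.44. Cox4i1 ran from 12.02 to 12.35 at P1 and from 12.73 to 12.87 at P15 in the cerebral cortex, with no overlap. Cox6b1 rose by 0.63 and 0.64 in the cerebral cortex and hippocampus, and Cox7a2 by 0.43 and 0.31. Both were nearer the threshold elsewhere: the cerebellar difference of Cox6b1 was 0.35 and was not called without the displaced arrays. Cox4i2, the lung form of subunit 4, stayed between 1.89 and 2.60 on all 72 arrays.

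**Figure D3:**
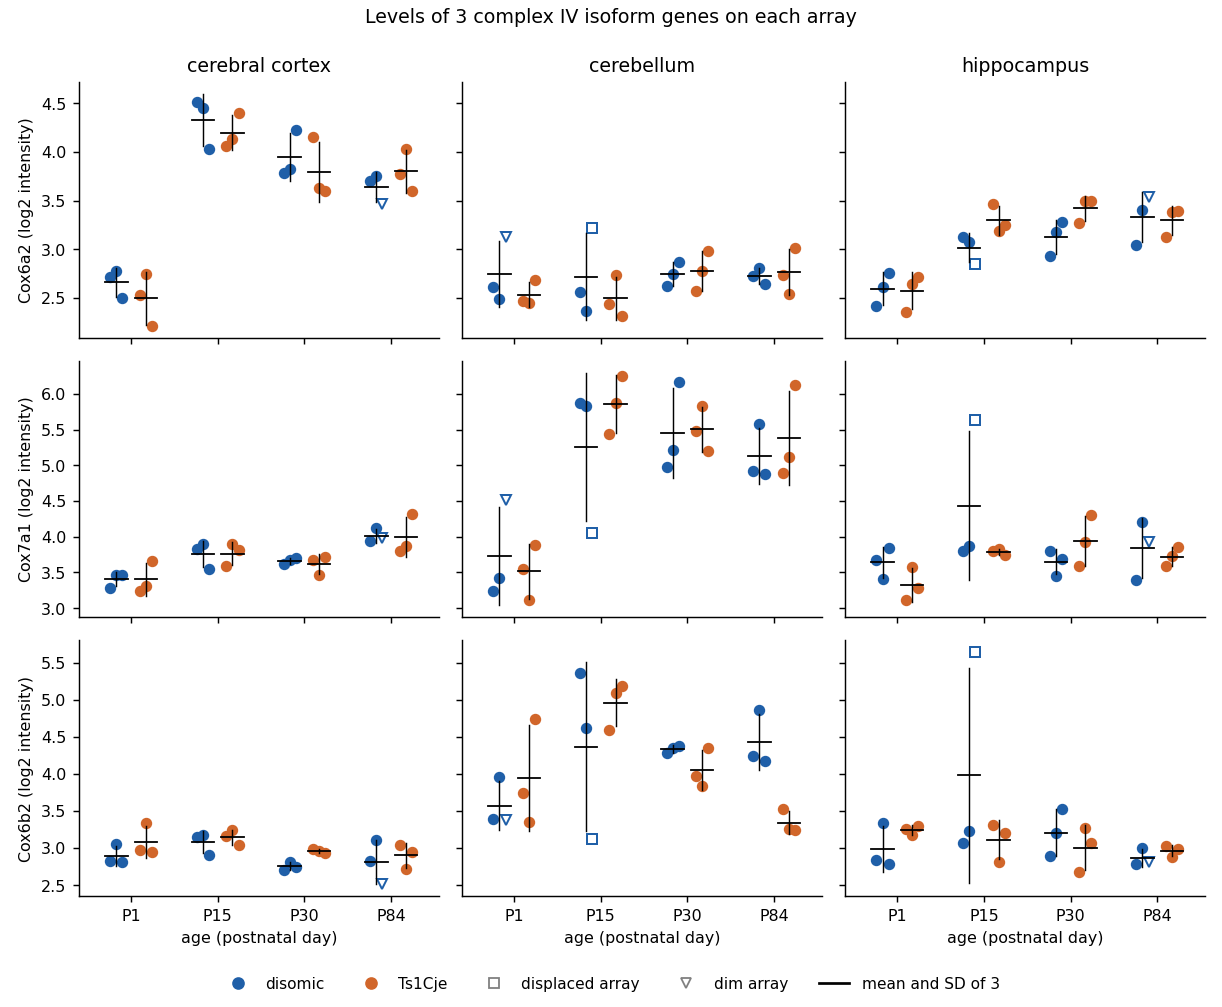
Log2 intensity of Cox6a2, Cox7a1 and Cox6b2 on each array by age (postnatal day) and region, with lines for the mean and SD of 3 mice and open symbols for displaced and dim arrays. Cox6a2 is highest in the cerebral cortex at P15 (4.03 to 4.52), Cox7a1 and Cox6b2 are highest in the cerebellum, and the 2 displaced P15 arrays lie with the other region's arrays in each row.

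The muscle isoforms Cox6a2 and Cox7a1 rose in different regions, Cox6a2 in the cerebral cortex and hippocampus and Cox7a1 in the cerebellum. Cox6a2 in the cerebral cortex ran from 2.21 through 2.62 to 2.77 at P1 and from 4.03 through 4.27 to 4.52 at P15, then from 3.60 to 4.23 at P30 and from 3.46 to 4.03 at P84. In the cerebellum all its values lay between 2.31 and 3.22, and in the hippocampus it ran from 2.36 to 2.75 at P1 and from 2.85 to 3.46 at P15. The cortical P1 and P15 values did not overlap and differed by 1.69 (SE 0.13, adjusted p 1.59e-16). The hippocampal values did not overlap either and differed by 0.57 (adjusted p 0.000234). That difference missed the moderated t threshold without replicate 1 of Ts1Cje P1 (0.52), Ts1Cje P15 (0.53) or disomic P1 hippocampus (0.53). Its P1 level was below the array medians, so that the size of the rise is uncertain. At P15 Cox6a2 was lower in the hippocampus than in the cerebral cortex by -1.11 (adjusted p 2.98e-09), where 4.69% of all genes were called, and it was the 1 member called. At P30 it was again the 1 member called, at -0.60 and with 5.47% of all genes, but not without Ts1Cje P30 cerebral cortex replicate 1 (-0.51) or disomic P30 cerebral cortex replicate 3 (-0.52). At P1 and P84, 0 members differed between these regions by this limma test (3.08% and 5.73% of all genes).

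Cox7a1 in the cerebellum ran from 3.12 through 3.48 to 4.51 at P1 and from 4.05 through 5.85 to 6.25 at P15, and 4.05 was the displaced array. The difference was 1.93 (SE 0.25, adjusted p 4.46e-09), and 2.23 without the displaced arrays. In the cerebral cortex Cox7a1 stayed between 3.24 and 4.31 at all ages, and its hippocampal difference of 0.63 was not called (adjusted p 0.0444). The hippocampal P15 arrays include a displaced one, and with single arrays left out this difference ran from 0.33 to 0.79. The testis isoform Cox6b2 followed in the cerebellum with a median of 3.57 at P1 and 4.86 at P15, a difference of 0.91 that was not called. It was called without the displaced array (1.22, adjusted p 3.55e-05) and without Ts1Cje P1 cerebellum replicate 3 (adjusted p 0.000534). Of the muscle genes, Ckm, the muscle creatine kinase, lay below the array medians in every region and age, and of 8 such genes 0 were called between P1 and P15 in the cerebral cortex and hippocampus by limma and 1 was lower in the cerebellum. The highest mean of these 8 genes on an array of the P1 cerebellum was 4.03, against a median of 2.96 there. In the P84 cerebral cortex it was 3.58, against 3.04.

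Parvalbumin interneurons, a fast-spiking class with a high energy demand, are a cell type in which Cox6a2 has been described. Of 8 markers of these cells, 6, 5 and 5 were higher at P15. Pvalb itself ran from 2.13 through 2.27 to 2.74 at P1 and from 5.23 through 6.47 to 7.44 at P15 in the cerebral cortex. The marker list rose in the cerebellum as well, from 4.83 to 5.60 at P1 to 6.95 to 7.63 at P15, where Cox6a2 stayed at or below 3.22. The list, which includes Gad1 and Gad2, was not checked for other cell types of the cerebellum. The part of these cells in the Cox6a2 values was not tested.

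ATP synthase had 10, 6 and 9 of 16 subunits higher at P15. Atp5b, the catalytic beta subunit, rose by 0.39, 0.69 and 0.45, and no array left out in turn ended these calls. Atp5d, a subunit of the F1 central stalk named after its values were seen, rose by 0.88 in the cerebral cortex.

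The 3 c-ring genes, which encode the same mature protein with different import sequences, did not move together. Atp5g3 ran from 11.84 to 12.11 at P1 and from 12.32 through 12.34 to 12.37 at P15 in the cerebral cortex, and its differences in the 3 regions were 0.37, 0.44 and 0.35 (SE 0.07). Its ages overlapped in the cerebellum through the displaced array alone, at 12.20. Atp5g2 ran the other way. In the cerebellum it ran from 10.18 through 10.54 to 10.65 at P1 and from 9.50 through 9.71 to 9.96 at P15, with no overlap and a difference of -0.71 (SE 0.11, adjusted p 3.47e-07). Its differences of -0.32 in the cerebral cortex (adjusted p 0.0169) and -0.43 in the hippocampus (adjusted p 0.00144) did not reach a moderated t of -4.

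Atp5g1 rose and then fell by the medians of its brightest probe set. Its medians in the cerebral cortex were 9.96 at P1, 10.84 at P15, 10.19 at P30 and 9.67 at P84, and in the hippocampus 10.12, 10.74, 10.36 and 10.08. The P1 and P15 arrays overlapped in both, and the differences were 0.67 and 0.64 (SE 0.12). In the cerebellum the medians were 10.21, 10.83, 10.12 and 9.97. The cerebellar rise of 0.55 missed the moderated t threshold without Ts1Cje P1 cerebellum replicate 1 (0.52), disomic P15 cerebellum replicate 1 (0.50) or disomic P1 cerebellum replicate 3 (0.46). Its fall from P15 to P30 in the cerebellum was -0.67 (SE 0.12, adjusted p 8.08e-05), and 0.04 when all Atp5g1 probe sets were averaged. In the cerebral cortex it fell by -0.51 from P15 to P30 and by -0.51 from P30 to P84. These calls were lost without 9 and 10 of 12 single arrays, and the differences were -0.15 and -0.21 with its probe sets averaged. No step after P15 was called in the hippocampus.

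**Figure D4:**
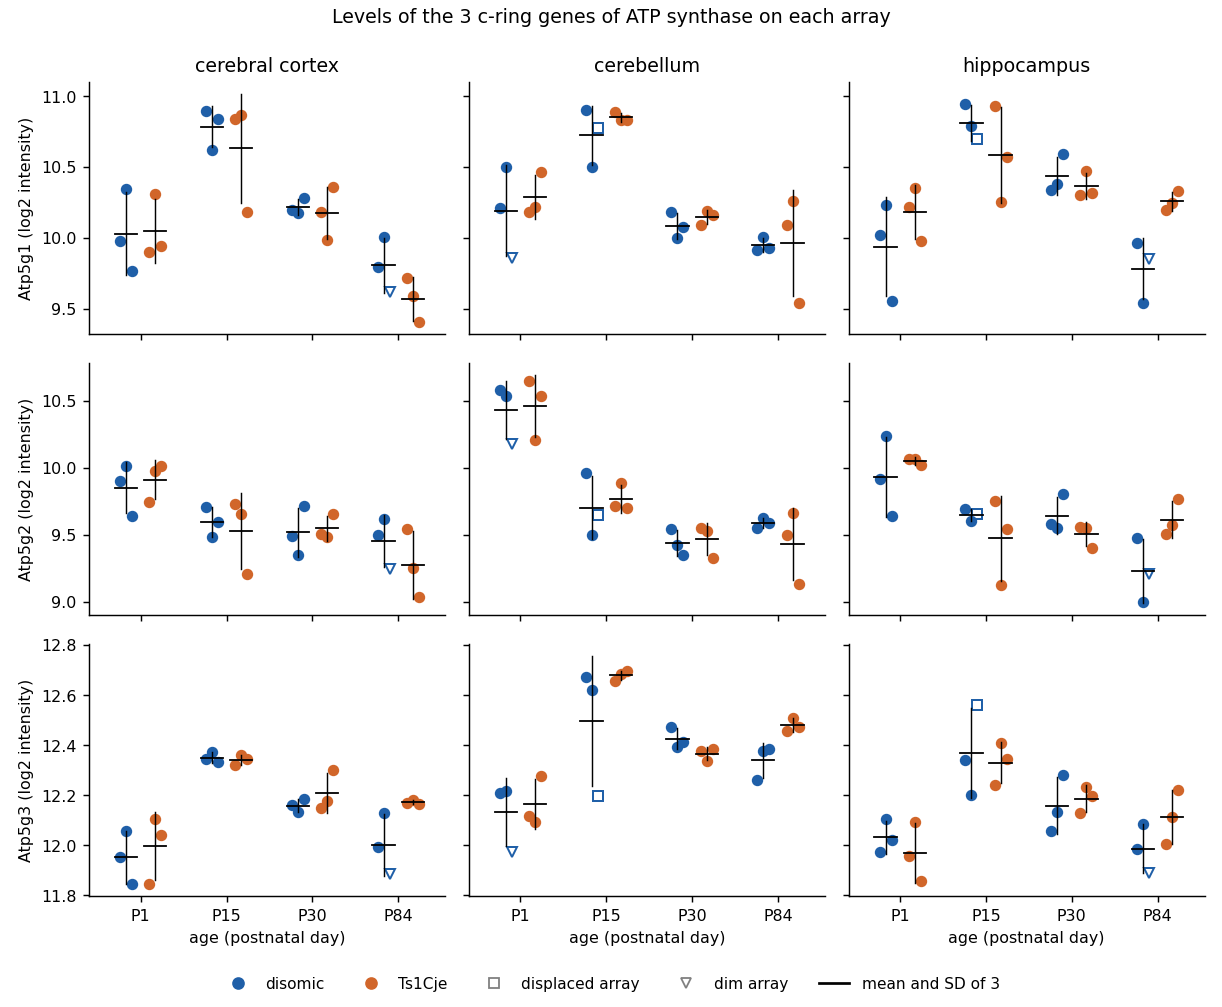
Log2 intensity of the c-ring genes Atp5g1, Atp5g2 and Atp5g3 on each array by age (postnatal day) and region, with lines for the mean and SD of 3 mice and open symbols for displaced and dim arrays. In the cerebellum Atp5g3 goes up from P1 (median 12.16) to P15 (12.66) while Atp5g2 goes down (10.54 to 9.71). The median of the brightest Atp5g1 probe set is highest at P15 in each region.

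Glycolysis and citric acid cycle genes rose over the same step. Of 15 glycolysis genes, 14, 15 and 13 were higher at P15, by medians of 1.20, 0.99 and 1.13. Of 10 citric acid cycle genes, 9, 7 and 8 were higher, by medians of 0.65, 0.55 and 0.60. Cycs and Cyc1, the cytochromes c and c1, were higher in all 3 regions, Cycs by 0.96, 0.42 and 0.68 and Cyc1 by 0.55, 0.44 and 0.46. Of the 4 genes of complex II, 2, 1 and 1 were higher, and Sdha, its flavoprotein, rose by 1.00, 0.76 and 0.98. Of 15 assembly factors of complexes III and IV, 4, 2 and 2 were higher and 1, 0 and 0 lower. The shares of all genes higher, given above, were 15%, 12.9% and 12.2%.

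Regulators of mitochondrial biogenesis were mixed. Of 10, 2, 3 and 3 were higher in the 3 regions and 3, 1 and 2 lower. Ppargc1a, the coactivator PGC-1alpha, rose by 1.38 and 0.89 in the cerebral cortex and hippocampus, and its cerebellar difference was -0.36 and not called. Tfam, which maintains mitochondrial DNA, fell by 0.70 on the log2 scale in the cerebellum, and its differences elsewhere, -0.44 and -0.60, were not called.

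Between regions, the cerebellum was ahead of the forebrain, taken as the mean of cerebral cortex and hippocampus, at P1. There 19 members were higher and 1 lower, against 9.50% and 9.72% of all genes. Cox8a was higher by 0.69 (SE 0.10, adjusted p 3.88e-07), and its cerebellar values, from 9.05 to 9.54, did not overlap the forebrain values, which reached 8.99. Ndufs8, an iron-sulfur core subunit of complex I, ran from 11.19 through 11.38 to 11.66 in the cerebellum and from 10.46 to 11.25 in the forebrain, a difference of 0.61 (SE 0.09, adjusted p 9.24e-08). Atp5g2 was higher by 0.51 and the accessory subunit Ndufa2 by 0.51. Ndufa12, Atp5e and Ndufa1, among the highest by moderated t, were higher by 0.47, 0.65 and 0.50. The 1 lower member was Ndufaf7, a complex I methyltransferase, at -0.73 (-0.58 with quantile normalization, and not called). Without Ts1Cje P1 cerebellum replicate 3 there were 12 calls, 10 of them higher, and without disomic P1 cerebellum replicate 2 there were 13, 10 of them higher. All 7 proliferation genes were also higher in the P1 cerebellum, by a median of 3.08, and their part in the result was not tested.

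In the main fit, fewer members were called between these regions later. This order depended on the setting: with 1 fit per age there were 11 calls at P1 and 20 at P30. At P15, 5 members were higher and 2 lower in the cerebellum (8.13% and 9.68% of all genes), at P30 3 and 3 (10.6% and 13.8%), and at P84 8 and 2 (12% and 12.4%). The P15 count of 7 was 3 without any 1 of Ts1Cje P15 cerebellum replicate 1, disomic P15 cerebellum replicate 1 or disomic P15 cerebellum replicate 2, 12 without disomic P15 cerebellum replicate 3, and 15 without both displaced arrays. Cox7a1 was higher by 1.62 at P15, 1.76 at P30 and 1.36 at P84, and Cox6a2 lower by -1.11, -0.81 and -0.77, and no array left out in turn ended these 6 calls. The cerebellar group means of Cox6a2 lay below the array medians, so that the sizes of its differences from the cerebellum, in level and in step, are uncertain. Without the displaced arrays the P15 difference of Cox7a1 was 2.07. Cox6b2 was higher by 1.34 at P15, by 1.86 without the displaced arrays, and by 1.22 at P30, and the P15 call was lost with 1 fit per age. The lower members other than Cox6a2 were Ndufaf7 at P15 (-0.63), Ndufa8 (-0.41) and Ndufb9 (-0.27) at P30, and Ndufb9 (-0.24) at P84, the last 2 genes being accessory subunits of complex I. Atp5b was higher by 0.37 at P30 and 0.42 at P84, and at P84 the alpha subunit Atp5a1 was higher by 0.55 (0.15 and not called when its probe sets were averaged), Atp5g3 by 0.34 and Uqcrfs1, the Rieske iron-sulfur protein of complex III, by 0.43.

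The step from P1 to P15 itself differed between cerebellum and forebrain for 6 members. It was larger in the cerebellum for 1 (6.66% of all genes), Cox7a1, by 1.44 (adjusted p 0.000253), and by 1.89 without the displaced arrays. It was smaller for 5 (7.70%): Cox6a2 by -1.16 (adjusted p 5.56e-08), Ndufa2 by -0.63 (adjusted p 0.000112), Cox7a2l by -0.66, Ndufc1 by -0.60 and Ndufa1 by -0.46. Ndufa2 ran from 10.71 through 11.09 to 11.27 at P1 and from 10.67 through 10.81 to 11.04 at P15 in the cerebellum, and from 10.29 through 10.57 to 10.91 and from 10.76 through 10.90 to 11.22 in the cerebral cortex. It moved down in the one and up in the other, and neither step was itself called. The calls of Cox7a1, Cox6a2 and Ndufa2 stood with each array left out in turn, and those of the other 3 did not. With quantile normalization the Cox7a1 step difference missed the moderated t threshold (adjusted p 0.00197). Leaving out Ts1Cje or disomic P1 cerebral cortex replicate 1, disomic P1 cerebellum replicate 2 or 3, Ts1Cje P1 cerebellum replicate 3 or Ts1Cje P15 cerebellum replicate 2 left 3 calls. From P15 to P30 and from P30 to P84, 0 members differed in the step by this limma test (2.75% and 0.121% of all genes).

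The question of the study was what the trisomy changes, and 0 of the 85 members were called between Ts1Cje and disomic mice at any of the 12 combinations of region and age by limma. The share of all genes called was 0.0220%, 0.00550%, 0.0275% and 0.0605% in the cerebral cortex at P1, P15, P30 and P84. Over the same ages it was 0.605%, 0.0440%, 0.0440% and 0.165% for cerebellum and 0.0385%, 0.0824%, 0.0330% and 0.104% for hippocampus. At an unadjusted p under 0.05 the member counts at these ages were 0, 0, 0 and 4 for cerebral cortex, 10, 2, 1 and 1 for cerebellum, and 1, 7, 0 and 12 for hippocampus. The share of all genes at that unadjusted p is not given here or below. Such counts therefore do not tell the members from genes at large. The median difference of the members ran from -0.05 to 0.13, with a median SE of 0.16 for a single member.

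Averaged over the 4 ages, with 12 mice against 12 in each region, 0 members were called by limma, and 0.253%, 0.264% and 0.275% of all genes were. The 1 member in each region at an unadjusted p under 0.05 was Atp5j2, an Fo subunit, in the cerebral cortex (0.14), Ndufaf5, a complex I assembly factor, for cerebellum (0.38) and Ndufa2 for hippocampus (0.16). The 95% interval of the average difference lay within 0.58 of 0 on either side, the log2 change of a gene present in 3 copies in place of 2, for 84, 83 and 85 of the 85 members. In the single comparisons this held for 59 to 72 members. Atp5o, which lies in the triplicated segment, was measured on the same arrays and was higher by 0.55, 0.56 and 0.61 in the averages (adjusted p 1.06e-05, 6.15e-06 and 8.15e-07). Atp5j and Ndufb4, the members on chromosome 16, lie proximal to Sod1 and outside that segment.

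**Figure D5:**
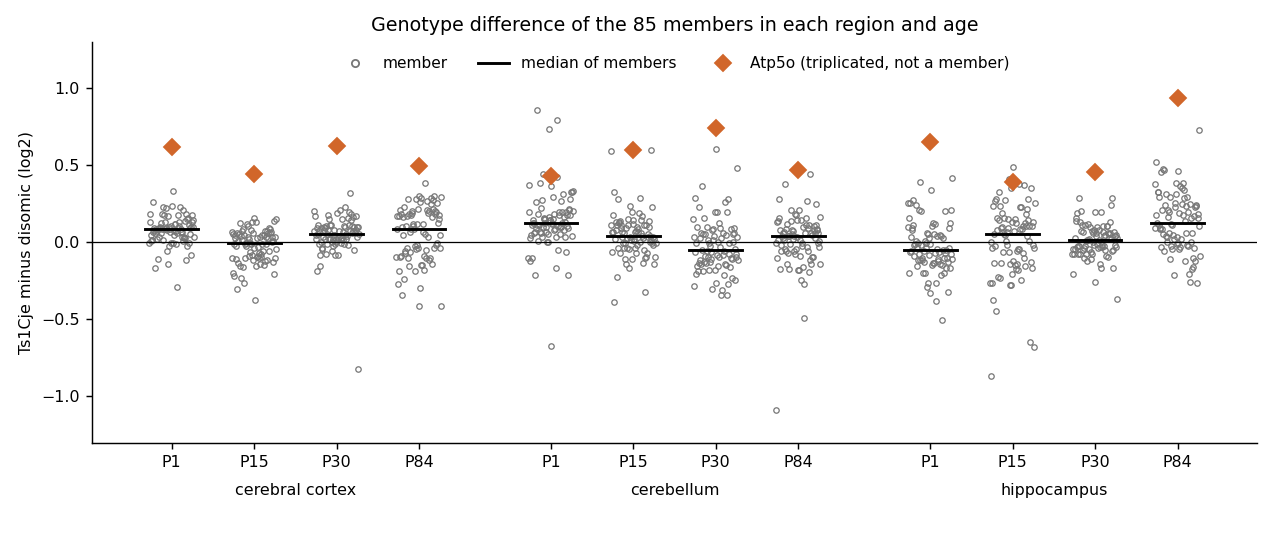
Ts1Cje minus disomic differences (log2) of the 85 members in each region and age (postnatal day), with circles for members, bars for their median and diamonds for Atp5o, a triplicated gene that is not a member. Medians lie between -0.05 and 0.13 and no member was called, and Atp5o lies between 0.39 and 0.94.

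The largest single difference was that of Cox6b2 in the P84 cerebellum. The disomic mice had 4.25, 4.87 and 4.18 and the Ts1Cje mice 3.53, 3.25 and 3.25, close to the array medians. The genotypes did not overlap and differed by -1.09 (SE 0.36, p 0.00415, adjusted p 0.905 by limma). Without the 2 displaced arrays, which belong to other groups but enter the shared estimate of spread, the difference was the same and Cox6b2 was called (adjusted p 0.0111), the 1 member called there. Cox6b2 and Cox7a1 also carried the displaced arrays at P15. The Cox6b2 difference was 0.59 in the cerebellum and -0.87 in the hippocampus at P15, and -0.03 in both without them, and Cox7a1 went from 0.60 and -0.65 to 0.00 and -0.05.

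In the P1 cerebellum Ndufaf5 was 5.89, 6.69 and 4.64 in disomic mice and 6.40, 6.22 and 7.18 in Ts1Cje mice. The genotypes overlapped, the lowest value came from the dim array, and the difference of 0.86 (SE 0.29) had an adjusted p of 0.121 by limma, the lowest of any member in the 12 comparisons. Cox8b, a muscle form of subunit 8 near the array medians, had the lowest difference there, -0.67 (adjusted p 0.158), with its highest value on the dim array and 2.45 to 2.90 on the other 5. Without disomic P1 cerebellum replicate 2, 2 members were called there, 1 higher and 1 lower. In the P84 hippocampus, Ndufs1 and Atp5g1 had the highest moderated t, with differences of 0.35 and 0.47 (adjusted p 0.489 and 0.512). Moderated F tests found 0 members whose genotype difference changed with age in any region (0%, 0.0605% and 0.00550% of all genes) or between regions (0%), and 0, 4, 5 and 0 members had an unadjusted p under 0.05. Without disomic P1 cerebellum replicate 2, 1 member was called for a change with age in the cerebellum.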

How the data were processed

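Total RNA of 3 brain regions was measured on 72 Affymetrix Mouse Genome arrays. The authors deposited log2 values made with gcRMA (GCRMA in the submitters' processing notes, version not given in the sources used here), which corrects background by probe sequence, normalizes between arrays and gives 1 value per probe set, with no filter and no pooling. Low values are compressed by that correction. The number of arrays limits the precision.

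Of 45101 probe sets, 34958 had 1 gene symbol, from which 1 probe set per gene, the highest by mean, gave 18194 genes. A further 8 symbols with these prefixes were found only on probe sets with several symbols and were not used. For 47 of the 85 members there was more than 1 probe set, 168 in all. limma 3.58.1 in R 4.3.3 was fitted to the means of 24 groups (48 residual degrees of freedom, 51.27 in total), with calls at a moderated t of 4 or more in size together with Benjamini-Hochberg adjustment over all probe sets to 0.05 or less. Age steps and region differences average both genotypes. The main fit has no term for the mouse, so that comparisons between regions treat arrays of the same mouse as independent. The fit was tested on simulated data.

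The members, gene lists and tests were chosen with earlier results of these data known. The members described were drawn from those called between genotypes, those with the most extreme moderated t in each comparison (3 a side for genotype, 5 a side for age and region), the isoform families, and the members most and least correlated with the rest, and other genes only from fixed lists. Groups and replicate numbers came from the labels. The labels call the replicates biological and tie no mouse to a litter. The labels do not say that a replicate number marks a shared mouse or batch. The alternatives were a replicate block, the mouse (taken as the replicate number within genotype and age) as a random block, quantile normalization, a filter at a mean of 5, a trended prior, 1 fit per region or age, the mean of all probe sets of a gene, and leaving out single, displaced or dim arrays. Promoter sequences are RefSeq's on GRCm38.p6.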

Additional observations from a re-analysis of the deposited data

Results flagged for a closer look

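The mean of the 68 subunits on disomic P84 cerebral cortex replicate 3 was 10.3109, against 10.4903 to 10.5752 on the other 5 arrays of that region and age, a gap of 0.679 of the group's range. It was 1 of 12 region and age groups examined, and chance sets off about 1 in 20 groups. This array was 1 of the 3 dim arrays, and the part of its dimness in the value was not tested.

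The P1 to P15 step differed between cerebellum and forebrain, by the interaction term of limma, for Cox7a1 (1.43994), Cox6a2 (-1.16446), Cox7a2l (-0.656588), Ndufa2 (-0.629316), Ndufc1 (-0.596749) and Ndufa1 (-0.46219). With single arrays left out the value ran from 1.28 to 1.74 for Cox7a1 and from -1.29 to -1.07 for Cox6a2, and from -0.70 to -0.57 for Ndufa2. It ran from -0.76 to -0.60 for Cox7a2l, -0.66 to -0.55 for Ndufc1 and -0.51 to -0.42 for Ndufa1, whose calls were lost without 22, 13 and 9 single arrays.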

How the results depend on the processing

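The rise of the members from P1 to P15 kept its direction and its count within 1.5 times in the 10 other settings in all 3 regions, with 31 of 43 cortical, 13 of 27 cerebellar and 23 of 37 hippocampal calls kept in every setting. Without 1 array the counts ran from 17 to 27 in the cerebellum. Deviations from the group means correlated above 0.1 in 21 of 36 same-numbered genotype pairs, in every pair of 2 of the 12 combinations of region and age, and in 51 of 72 region pairs, so that pairing by number was not met throughout. With the replicate number over all arrays as a replicate block, the P1 to P15 counts were 46, 30 and 45, genotype still had 0 calls, and no call named in the text was lost. Neither this block nor the mouse as a random block (consensus correlation 0.0856) moved a count of calls by over 1.5 times. The counts below are of members called, and the cause of each change was not tested unless the setting removed genes or arrays.

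With 1 fit per region or age, cerebellum minus forebrain went from 20 to 11 at P1, 7 to 4 at P15 and 6 to 20 at P30, and the cerebral cortex steps after P15 went from 1 and 2 to 0. A filter at a mean of 5, which removes the low isoforms, gave 2 at P15, 3 at P30 and 5 in place of 10 at P84, 3 in place of 6 for the P1 to P15 step difference, and 0 in place of 1 for hippocampus minus cerebral cortex at P15 and P30. The mean of all probe sets of a gene gave 12 at P15 and 12 at P30 for cerebellum minus forebrain, 1 in place of 0 from P30 to P84 in the cerebellum, 1 in place of 2 in the cerebral cortex, and reversed Atp5g1 from P15 to P30 in the cerebellum (-0.67 to 0.0438). Quantile normalization gave 11 for cerebellum minus forebrain at P30. Without the 2 displaced arrays it was 15 at P15, and 1 in place of 0 for genotype in the P84 cerebellum. Without the 3 dim arrays the step difference had 3 and the P30 to P84 cerebral cortex step 0. Without all 5, a setting chosen after seeing the data, cerebellum minus forebrain was 17 at P15 and 12 at P30, hippocampus minus cerebral cortex 1 in place of 0 at P84, P15 to P30 in the cerebellum 7 in place of 4, P30 to P84 in the cerebral cortex 0, and genotype in the P84 cerebellum 1.

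Without single arrays, genotype in the P1 cerebellum ran from 0 to 2 and its change with age in the cerebellum from 0 to 1, P15 to P30 in the cerebral cortex from 0 to 1, P30 to P84 there from 0 to 2, cerebellum minus forebrain from 12 to 23 at P1 and 3 to 12 at P15, hippocampus minus cerebral cortex at P30 from 0 to 1, and the step difference from 3 to 8. Many lost calls fell short of the moderated t alone. With 3 mice a group, small genotype differences of single members are beyond these arrays.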

Other observations

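Ndufa4, a complex IV subunit first assigned to complex I, varied more between mice of a group than any other member, with a median SD of 0.501 within the 24 groups. Its highest value was on the array numbered replicate 1 in 23 of 24 groups, across both genotypes, all regions and all ages. Over the groups, replicate 1 lay 0.488 above its group mean, and replicates 2 and 3 lay at -0.191 and -0.297. Other members ran with the replicate number as well. Ndufv2, a core subunit of complex I, had replicate 1 highest in 17 groups. Replicate 1 was highest in 0 of 24 groups for 13 of the 85 members, among them Ndufa10, an accessory subunit (mean deviation of replicate 1, -0.257), and Ndufs7, a core subunit of complex I (-0.209). In the P30 cerebral cortex Ndufa4 was 10.87, 10.72 and 11.11 in disomic mice and 10.97, 9.17 and 10.09 in Ts1Cje mice, and this made its genotype difference of -0.82 (SE 0.45, adjusted p 1.00 by limma). The labels do not say what a replicate number shares across groups. This pattern was noticed after the values were seen.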
